A study of Mus musculus with 52 samples.

Results

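Non-ciliated control 3 is a single clone of growing mouse kidney cells, and its RNA was compared with that of the 3 other non-ciliated control clones of the same study. Members were taken from the sample labels: the 4 libraries of control 3 against the 12 libraries of controls AB, 1 and 2, which makes 16 of the 52 libraries of the series. The series compares cells carrying edited Wdr34 or Wdr60, which encode intermediate chains of the dynein-2 motor that moves cargo in cilia, with unedited control clones, in ciliated and non-ciliated states. By the labels it holds 13 groups of a clone in a state, 7 ciliated and 6 non-ciliated, each with 4 libraries, and some clones may appear in both states. All were derived from Cilia-APEX-IMCD3 cells, an inner medullary collecting duct line. All 4 groups used here are labelled genotype control, treatment CRISPR, immortalised IMCD3 from kidney and non-ciliated, and were grown in DMEM with 10% FBS. Per the study's methods, controls received the cytosine base editor BE4-Gam and the guide plasmid without a target oligonucleotide, and were then sorted as single cells, so each control is 1 clone. The sources used here do not say why control AB has another name prefix. The 4 libraries of a clone are technical replicates, so p-values measure the spread between these libraries of 4 clones and not the spread over many clones.

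Cells grown out from single sorted cells of 1 line start from the state of their founder, and clones of an immortalised line are known to differ in expression from each other. Elmod1 belongs to the ELMOD family, whose proteins stimulate GTP hydrolysis on small GTPases of the Arf and Arl families, which act in membrane traffic and on microtubules. IMCD3 cells are widely used for work on primary cilia because they form a cilium when they stop dividing, and the libraries described here come from the state without cilia.

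Library totals of control 3 lay between 17733800 and 20934800 counts, and those of all 16 libraries between 15617400 and 21085700. The libraries of control 3 were close to each other, with a median absolute log2 deviation from their clone mates of 0.0609 to 0.0826. Library 1 of control AB stood apart from its mates, at 0.349 against at most 0.152 for the other libraries of that clone. Of 10 markers of cultured kidney tubule epithelium, 9 exceeded 1 CPM (counts scaled to the library total, with TMM factors) in every control clone, Pax2, Pax8, Cdh16 and Hoxb7 among them, and Emx1 was listed at 0. The collecting duct genes Aqp2, Aqp4, Scnn1b and Scnn1g were at 0 in all 4 libraries of control 3, as were Kcnj1 and Kcne1. Aqp2, Kcnj1 and Kcne1 were at 0 in the other 3 clones too, Aqp4 in controls 1 and 2, and Scnn1b in control AB. The sum of all 15 principal cell markers was nevertheless highest in control 3, at 60.9 to 66.9 CPM against 20.1 to 45.2 CPM, mostly from St6gal1 at 54.1 CPM. Control 2 stood apart from the other clones: Cdh1, the epithelial cadherin, was at 4.14 CPM there against 338 CPM in control 3, and the summed epithelial markers were at 1163 to 1205 CPM against 3113 to 3206 CPM. Wdr34 was at 26.2 ± 3.22 CPM in control 3 and Wdr60 at 24.5 ± 1.16 CPM (mean ± SD, n = 4 libraries), both within the range of the clone means of the other controls.

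Elmod1 was high in control 3, as the choice of this clone already states, so its levels are a description without a test. It was at 10.1, 10.3, 11.5 and 11.1 CPM in the 4 libraries of control 3. Control 1 held 1.24, 1.23, 1.22 and 1.95 CPM and control 2 held 1.44, 1.43, 2.23 and 1.79 CPM, while control AB held 0, 0.101, 0 and 0.155 CPM. The libraries of control 3 did not overlap with any other control library, controls 1 and 2 overlapped with each other, and control AB lay below both. In the mutants of the same state the mean was 0.563 ± 0.283 CPM in the Wdr34 clone and 0.0734 ± 0.0557 CPM in the Wdr60 clone. Its log2 fold change over the other controls was 3.34, and over each clone it was 7.22 against AB, 2.93 against control 1 and 2.64 against control 2. Elmod1 lies on chromosome 9 at 53911457 to 53975428 (GRCm38.p6). The other members of the family were close to the other clones, with Elmod2 at 30.4 CPM (log2 fold change 0.06) and Elmod3 at 13.7 CPM (log2 fold change 0.27), and neither was called.

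**Figure D1:**
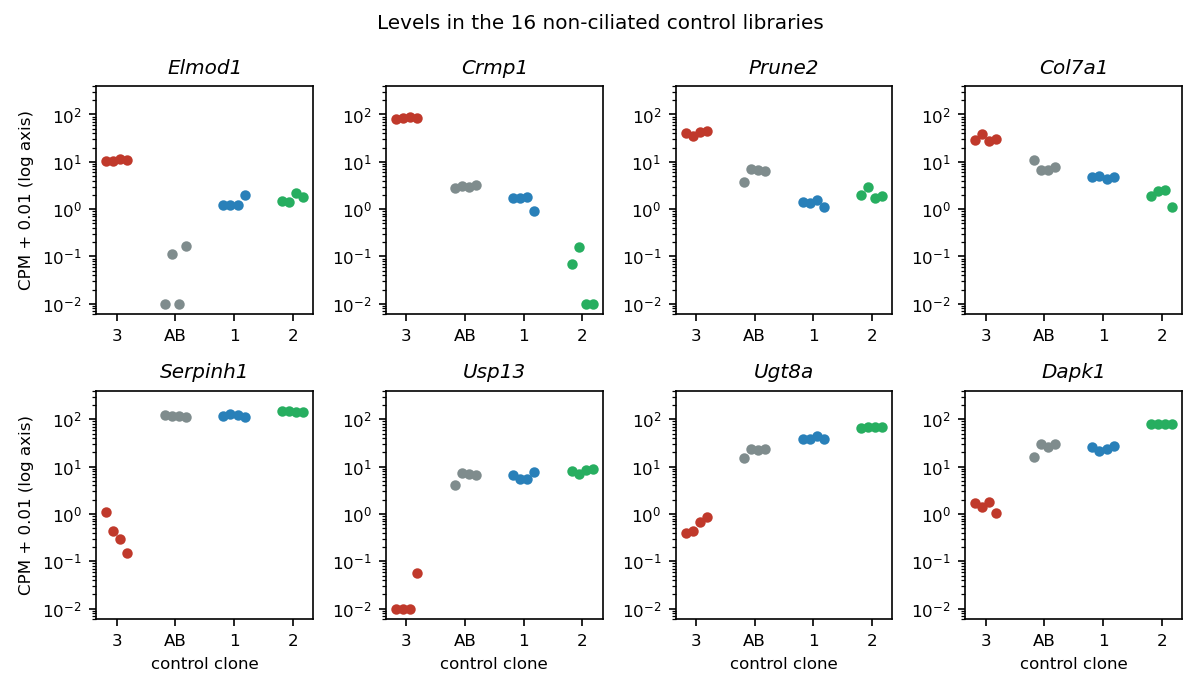
Levels of 8 genes in each of the 16 non-ciliated control libraries, as CPM + 0.01 on a log axis, by control clone (1 point per library). Control 3 lies above all others for Elmod1, Crmp1, Prune2 and Col7a1 and below all others for Serpinh1, Usp13, Ugt8a and Dapk1.

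Across the genome, 145 genes were upregulated in control 3 and 175 downregulated among 12327 tested, which is 1.18% and 1.42% (edgeR quasi-likelihood test, 2-sided). A gene counted as called when its Benjamini-Hochberg adjusted p was under 0.05 and its level differed at least 2-fold. With 1 mean fitted per clone, the counts were 609 and 275. That fit weighs the clones equally, but only the spread between libraries of a clone enters it. Without control AB the counts were 415 and 355, and without control 1 those called lower were 298. Leaving out 1 library of control 3 gave 106 to 115 higher and 111 to 113 lower. All 4 libraries of control 3 lay above the 12 others in 138 of the genes called higher, which is 1.12% of the genes tested, and below them in 139 of those called lower, 1.13%. Over all tested genes, called or not, 5.22% lay above and 4.9% below in this way. Called by the same rule in the same place, control AB had 383 genes higher (3.11%) and 364 lower (2.95%), control 1 had 33 (0.268%) and 236 (1.91%), and control 2 had 552 (4.48%) and 1034 (8.39%). Control 3 was nearest to control 1, with a median absolute log2 difference of 0.181 over 11444 genes, then to control AB at 0.222 and control 2 at 0.311. In the fit with 1 mean per clone, 110 genes were called higher against each of the 3 clones taken singly (0.892%) and 90 lower (0.73%). With the 4 libraries of a clone summed, so that 1 clone stood against 3, no gene was called, 235 of 13808 genes had an unadjusted p under 0.05, and DESeq2 on the separate libraries called 206 higher and 294 lower. With the clone as a block (voom in limma), 26 genes were called higher and 6 lower, and 40 of 56 named calls were lost, among them every leading lower gene except Serpinh1. Also lost in this way were Flrt3, Col20a1, Serpinb9b, Irx3, Gata2, Lhx1, Dll4, Dlk2, Nid1, Col6a1, St6gal1, Id4, Smad9, Tgfbr3, Epha7, Fgfr2, Nrg2, Dusp4, Rgs2, Adam19 and Arxes2. No adjusted p-value printed below allows for the clone, whether or not the gene kept its call with the clone as a block. The smallest p of an exact permutation test of 1 clone against 3 is 0.25.

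**Figure D2:**
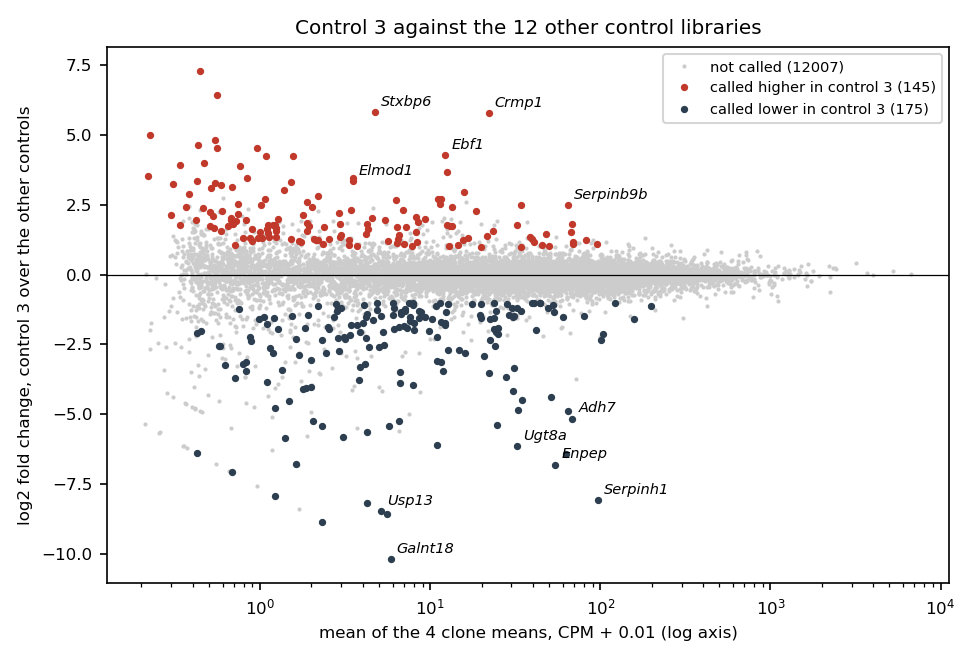
Log2 fold change of control 3 over the 12 other control libraries for each of the 12327 tested genes, against the mean of the 4 clone means in CPM + 0.01 on a log axis. Red points are the 145 genes called higher and dark points the 175 called lower, with named genes labelled.

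The leading genes called higher belong to several families. Crmp1, a collapsin response mediator that acts on the axonal cytoskeleton, was at 79.7, 82.8, 88.1 and 83.3 CPM in control 3. In the other 12 libraries it reached from 0 to 3.21 CPM with a median of 1.7 CPM, so the groups lay far apart (log2 fold change 5.77, SE 0.64, adjusted p 1.95e-05). Stxbp6, which binds the SNARE proteins of vesicle fusion, was at 16.9 to 18.8 CPM in control 3, at 0 in all 8 libraries of controls 1 and 2 and at 0.719 to 1.19 CPM in control AB (log2 fold change 5.83, SE 0.85, adjusted p 0.000289). Ebf1, a transcription factor best known from early B cells, was at 38.0 to 46.2 CPM against at most 4.5 CPM elsewhere (log2 fold change 4.27, SE 0.71, adjusted p 0.000953). Prune2 was at 39.7, 35.4, 42.2 and 44.6 CPM against 1.1 to 7.1 CPM (log2 fold change 3.68, SE 0.41, adjusted p 2.31e-05). The rule that named these genes asked for libraries that do not overlap, so their separation is part of the choice. Flrt3, a membrane protein of cell adhesion and FGF signalling, was at 3.89, 4.39, 7.34 and 5.86 CPM against at most 1.21 CPM (log2 fold change 4.24). Flrt3 passed the filter on low counts only through control 3, so its value is a description without a test. Bdkrb2, the bradykinin B2 receptor, was at 16.2 to 19.1 CPM against at most 4.75 CPM (log2 fold change 2.67, adjusted p 0.00354 in edgeR), Acsbg1, an acyl-CoA synthetase, at 5.86 to 6.67 CPM against at most 1.8 CPM, and Tmem252 at 10.4 to 12.6 CPM against at most 2.17 CPM. Clca3b, of the CLCA family, was at 29.2 to 31.6 CPM against at most 9.74 CPM, and Nipal4, a magnesium transporter of the skin, at 42.0 to 49.6 CPM against at most 11 CPM. The most abundant leading gene was Serpinb9b, a serine protease inhibitor from a family of related genes that the counting may not separate, at 162, 167, 166 and 173 CPM against 2.95 to 58.9 CPM (log2 fold change 2.49). The calls of Nipal4 and Serpinb9b were lost when any 1 library of control 3 was left out.

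The gene with the clearest loss was Serpinh1, which encodes HSP47, the collagen chaperone of the endoplasmic reticulum. It was at 1.07, 0.433, 0.292 and 0.143 CPM in control 3. The other 12 libraries held 112 to 151 CPM with a median of 123 CPM, a narrow band that all 3 clones shared (log2 fold change -8.07, SE 0.32, adjusted p 1.17e-10 in edgeR). Serpinh1 lies on chromosome 7 at 99345375 to 99353239. Usp13, a deubiquitinase on chromosome 3 at 32816283 to 32938075, had 1 count in the 4 libraries of control 3 together against 1531 in the other 12. The other controls were 538 times higher, with an exact 95% interval of 96.5 to 21274 that covers counting error only (adjusted p 6.17e-09 in edgeR). Its call, like those of Galnt18 and Tbx15 below, was lost with the clone as a block. The levels of Usp13 outside control 3 ran from 4.11 to 8.76 CPM. Galnt18, which starts O-linked glycans on mucins, had 0 counts in control 3 against 1717 in the others, which is at least 201-fold lower when a floor of 3 counts is set over the 4 libraries. Its levels in the others were as wide as 0.125 to 17.7 CPM, and its call was lost when any 1 library of control 3 was left out. Tbx15, a T-box transcription factor, had 1 count against 1280, a ratio of 450.0 (exact 95% interval 80.6 to 17788, adjusted p 0.000658 in edgeR).

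Other genes near the bottom had levels from 0 to 3.38 CPM in the libraries of control 3, Fam43a and Gspt2 being lowest and Tmem178 highest, and differed among the remaining clones. With the clone as a block, none of the genes named in this paragraph kept its call. Ugt8a, which makes galactosylceramide, was at 0.395, 0.433, 0.68 and 0.858 CPM in control 3 and at 15.6 to 68.9 CPM in the other libraries (log2 fold change -6.14, SE 0.55, adjusted p 3.07e-06 in edgeR). Dapk1, a kinase linked to cell death, was at 1.69, 1.41, 1.8 and 1.05 CPM against 16.3 to 80.5 CPM (log2 fold change -4.85, SE 0.60, adjusted p 6.12e-05 in edgeR). For both, control AB was the nearest clone to control 3 or level with control 1, and control 2 was highest. The same order held for Gas1, a membrane protein that binds hedgehog ligands, at 0.583 to 1.47 CPM in control 3 and 15.3 to 193 CPM in the others (log2 fold change -6.41). Adh7, which oxidises retinol and ethanol, was at 1.57 to 3.26 CPM against 28.7 to 198 CPM (log2 fold change -5.16), and Ppargc1a, the coactivator of mitochondrial genes, at 0.0476 to 0.325 CPM against 2.93 to 15.8 CPM (log2 fold change -5.41, adjusted p 0.000279 in edgeR). Enpep, the aminopeptidase that trims angiotensin, was at 0.338 to 0.875 CPM against 3.67 to 218 CPM, where the upper end came from control 2 and the call was lost when any 1 library of control 3 was left out. Tmem178, Chst15 and Lifr had the same shape, with control AB close above control 3 (log2 fold changes against AB of -0.85, -1.67 and -1.56) and control 2 far above (-6.18, -7.33 and -6.70). The call of Tmem178 was lost when any 1 library of control 3 was left out, and that of Chst15 without library 1, 2 or 4. Gspt2, a translation termination factor, was at 0 to 0.338 CPM in control 3, 0.554 to 0.81 CPM in control AB and 5.88 to 10.5 CPM in controls 1 and 2. Fam43a was at 0 to 0.395 CPM against 2.02 to 19.7 CPM. Leaving out control 2, the clone with low epithelial markers, left 194 genes called higher and 195 lower.

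The sequences upstream of 4 leading genes, 2 with high and 2 with low levels in control 3, are shown because each direction holds 1 window rich and 1 poor in CpG. Each is the 250 bases before the RefSeq start (GRCm38.p6), 5′ to 3′ on the gene's strand, with every CpG in capitals. Serpinh1 is read from the minus strand at chr7:99353240-99353489 and Ugt8a from the minus strand at chr3:125938653-125938902. Crmp1 is read from the plus strand at chr5:37241808-37242057, at the first of 2 listed starts, and Col7a1 from the plus strand at chr9:108953336-108953585.
Serpinh1: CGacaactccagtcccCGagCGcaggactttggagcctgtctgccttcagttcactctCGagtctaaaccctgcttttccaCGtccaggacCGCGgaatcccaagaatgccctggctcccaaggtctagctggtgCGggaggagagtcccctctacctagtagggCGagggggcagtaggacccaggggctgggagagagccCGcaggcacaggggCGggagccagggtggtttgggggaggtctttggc
Ugt8a: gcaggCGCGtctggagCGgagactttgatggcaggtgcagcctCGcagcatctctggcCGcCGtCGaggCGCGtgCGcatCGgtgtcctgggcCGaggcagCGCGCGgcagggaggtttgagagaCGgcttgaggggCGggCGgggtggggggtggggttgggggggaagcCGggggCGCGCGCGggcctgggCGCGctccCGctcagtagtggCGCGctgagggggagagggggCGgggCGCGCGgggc
Crmp1: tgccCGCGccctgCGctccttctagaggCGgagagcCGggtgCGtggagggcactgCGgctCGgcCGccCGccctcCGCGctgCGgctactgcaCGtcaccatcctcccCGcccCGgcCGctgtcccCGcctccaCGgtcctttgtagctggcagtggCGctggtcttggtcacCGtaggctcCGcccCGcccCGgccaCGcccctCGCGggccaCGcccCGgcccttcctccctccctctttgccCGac
Col7a1: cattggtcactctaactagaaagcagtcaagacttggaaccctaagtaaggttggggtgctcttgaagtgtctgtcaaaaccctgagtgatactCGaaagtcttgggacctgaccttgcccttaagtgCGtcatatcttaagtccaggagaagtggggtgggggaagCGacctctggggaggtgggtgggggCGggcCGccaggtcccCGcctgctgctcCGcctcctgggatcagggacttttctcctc
Ugt8a holds 32 CpG and Crmp1 holds 30, against 11 in Serpinh1 and 7 in Col7a1. The window of Ugt8a reaches into the span listed for the gene, which ends at 125938682, because the RefSeq start used lies inside that span. RefSeq windows of 300 bases, which add 50 bases after the start, were matched for 110 of the 145 genes called higher, 139 of the 175 called lower and 9798 of all 12327 tested. The ratio of observed to expected CpG had a median of 0.433 in the genes called higher, 0.662 in those called lower and 0.779 over all. A ratio of at least 0.6 was found in 35.5% of the windows of higher genes, 59.0% of those of lower genes and 74.7% of all. The letters TATAAA on either strand were present in 9.09%, 11.5% and 6.61%, and in none of the 4 windows shown. These shares describe the windows and were not tested.

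Extracellular matrix genes did not move with Serpinh1 in 1 direction. Of 23 tested collagens and basement membrane genes, 2 rose and 1 fell (8.70% and 4.35%, beside 1.18% and 1.42% of all genes), with a median log2 fold change of -0.32 beside -0.01 over all genes. Col7a1, the anchoring fibril collagen of epithelia, was at 29.4, 38.0, 27.9 and 31.0 CPM against 1.1 to 10.8 CPM (log2 fold change 2.70, SE 0.37, adjusted p 0.000171 in edgeR). Nid1, the basement membrane linker nidogen, rose (log2 fold change 2.14, adjusted p 0.0126 in edgeR) and Col6a1 fell (-2.54, adjusted p 0.0223), a call that was lost when any 1 library of control 3 was left out. The call of Nid1 was lost when the libraries of any 1 replicate number were left out of all clones. The median of the list was 0.12 against control AB, -0.09 against control 1 and -0.54 against control 2, so its sign depended on the clone set beside control 3. Col20a1, a fibril-associated collagen outside that list, was at 4.34 to 6.0 CPM against at most 1.6 CPM (log2 fold change 2.59, adjusted p 1.72e-05 in edgeR).

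Parts of the receptor for ciliary neurotrophic factor differed in opposite directions, and they are described here after their values were seen. This receptor joins Cntfr, the ligand-binding subunit, with the signalling subunits Lifr and Il6st. Cntfr was at 29.5, 31.3, 29.9 and 29.0 CPM in control 3 and at 0.72 to 10.8 CPM elsewhere (log2 fold change 2.54, SE 0.56, adjusted p 0.00799 in edgeR). Cntfr lay above every other control library, with control AB the nearest. Its call was lost when the libraries of replicate number 3, or those of number 4, were left out of all clones. Lifr fell to 0.507, 1.03, 0.972 and 0.572 CPM against 1.25 to 87.1 CPM (log2 fold change -5.39, SE 1.37, adjusted p 0.0196 in edgeR), a call that was lost when any 1 library of control 3 was left out. Il6st (log2 fold change -0.80, adjusted p 0.329) did not pass the test in edgeR.

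Of 18 tested transcription factors of the kidney tubule, 1 rose and 4 fell (5.56% and 22.2%, beside 1.18% and 1.42% of all genes), and the other 13 were not called (median log2 fold change -0.32). Irx3, which acts in patterning of the nephron, was at 3.5, 3.03, 2.04 and 2.91 CPM in control 3 and 11.4 to 73.8 CPM in the others (log2 fold change -3.65, SE 0.61, adjusted p 0.00104 in edgeR). Foxd1 (log2 fold change -4.36), Sim1 (-2.04) and Gata2 (-1.27, adjusted p 0.00357 in edgeR) fell as well. Lhx1, needed for the early nephron, was at 1.13 to 1.95 CPM against at most 0.187 CPM (log2 fold change 4.65), so it was higher but low in level. It had 118 counts in control 3 and 12 in the others together. It therefore passed the filter on low counts only through control 3, and its value is a description without a test. Trpm6, the magnesium channel of the distal tubule, was at 25.9, 30, 29.4 and 28.1 CPM against 4.36 to 11.6 CPM (log2 fold change 1.76, SE 0.17, adjusted p 8.56e-06 in edgeR). It was the 1 tested gene of 9 markers of thick limb and distal tubule. St6gal1, a sialyltransferase, lay just past the fold limit (adjusted p 0.00842 in edgeR) and lost its call in many alternatives, among them DESeq2, no filter on low counts and leaving out control AB or library 1 of either control AB or control 3. In bulk RNA, fewer cells of a type and less RNA per cell cannot be told apart.

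Guidance molecules and signalling genes changed singly. Of 46 tested guidance molecules, 1 rose and 4 fell (2.17% and 8.70%, beside 1.18% and 1.42% of all genes), and the median log2 fold change was -0.02. Ntn1, the secreted netrin, was at 14.5, 11.9, 12.5 and 12.5 CPM against 38.9 to 66.4 CPM (log2 fold change -1.99, SE 0.15, adjusted p 4.5e-07 in edgeR). Ephb2, an ephrin receptor, was at 6.43 to 8.2 CPM against 23 to 39.5 CPM (log2 fold change -1.93, SE 0.19, adjusted p 8.56e-06 in edgeR). For both, the 3 other clones were close together and control 3 lay apart. Efna2 (log2 fold change -2.01) and Sema5a (-2.14) were lower, although Sema5a was nearly level between control 3 and control AB (-0.12), and Epha7 was higher at under 1 CPM (3.53). Epha7, the 1 guidance gene that rose, had 53 counts in control 3 and 12 in the others together. It passed the filter on low counts only through control 3, so its value is a description without a test. In the BMP and TGF-beta list, 1 of 35 rose and 3 fell (2.86% and 8.57%). Nog, which binds BMP ligands, was higher (log2 fold change 1.56), while Id4 (-4.04), Smad9 (-3.76) and the co-receptor Tgfbr3 (-2.11) were lower. Smad9 overlapped with other controls, at 0.169 to 0.619 CPM in control 3 and from 0.311 CPM upward elsewhere. Its log2 fold change was -1.13 against control AB, beside -3.77 and -4.62 against controls 1 and 2. Of the 16 tested Notch genes, the ligand Dll4 rose (1.67, adjusted p 0.0112 in edgeR) and Dlk2 fell (-1.33, adjusted p 0.00016 in edgeR). In the EGF and FGF list, 2 of 38 rose and 1 fell (5.26% and 2.63%), the latter being Fgfr2 (-1.19). The calls of Fgfr2 and Tgfbr3 were lost when any 1 library of control 3 was left out, that of Smad9 without library 1, 2 or 3 and that of Dll4 without library 1. Nrg2, one of the 2 that rose, lost its call in the same way as Fgfr2, and Dusp4, the other, lost it without control AB or without control 2.

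Several groups held no called gene. None of 46 Arf and Arl GTPases and their regulators, 27 genes of Golgi coats and Rab6, 34 dynein-2 and intraflagellar transport genes, 24 Hox genes or 77 ribosomal proteins was called by edgeR. Elmod1, described above and itself a regulator of such GTPases, is not in the Arf and Arl list. Over all genes 1.18% were called higher and 1.42% lower, so lists of this size hold few calls at that rate. At an unadjusted p under 0.05, as 23.2% of all genes were, these lists held 13, 4, 6, 4 and 3 genes, and DESeq2 called 1 lower gene in each of the Arf and Golgi lists and none in the dynein-2 list. Keratins and epithelial junction genes were also not called (0 of 38, 6 at an unadjusted p under 0.05, 1 lower by DESeq2), but their median was 0.37. That median was -0.13 against control AB, 0.29 against control 1 and 1.81 against control 2, the clone with low Cdh1. Cholesterol and fatty acid synthesis genes had a median log2 fold change of 0.22 over 33 genes (0 called, 19 at an unadjusted p under 0.05, beside 23.2% of all genes), with medians of 0.26 against AB, 0.15 against control 1 and 0.34 against control 2. Genes of DNA replication had a median of -0.17 over 44 genes and those of mitosis -0.06 over 44, with 0 called in both and 13 and 11 at an unadjusted p under 0.05.

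Genes of chromosome 3 were lower in control 3 along the whole chromosome. The median log2 fold change of its 599 tested genes was -0.53, a ratio of 0.694, against 0.00 for the genes of all other chromosomes, and 92.2% of them were negative against 49.9% elsewhere. It was lower against each clone, by -0.69 against AB, -0.44 against control 1 and -0.37 against control 2. All 550 runs of 50 neighbouring genes had a median below 0, from -0.71 to -0.35, from Zfhx4 at one end to Wls at the other. Chromosome 3 held 34 of the 175 genes called lower (19.4%) and 3 of those called higher. That is 5.68% of its tested genes called lower against 1.20% elsewhere. Pag1 was the first called gene along it and St6galnac3 the last, and Usp13, Tbx15, Enpep, Ugt8a and Adh7 of the leading lower genes lie there. On chromosome 19 the median was 0.24 over 456 genes, higher against each clone (0.26, 0.27 and 0.18 against AB, 1 and 2), and 13 genes were called higher and 2 lower (2.85% and 0.439%, beside 1.18% and 1.42% of all genes), Prune2, Trpm6 and Tmem252 among the higher ones. Chromosome 6 had a median of 0.25 that came from control AB (0.63, against 0.08 and 0.09 for controls 1 and 2), and chromosome 1 a median of 0.14 that came from control 2 (0.59, against -0.02 and -0.00 for AB and 1). These medians are descriptions across genes, and with other size factors (RLE) the chromosome 3 value was again -0.53.

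**Figure D3:**
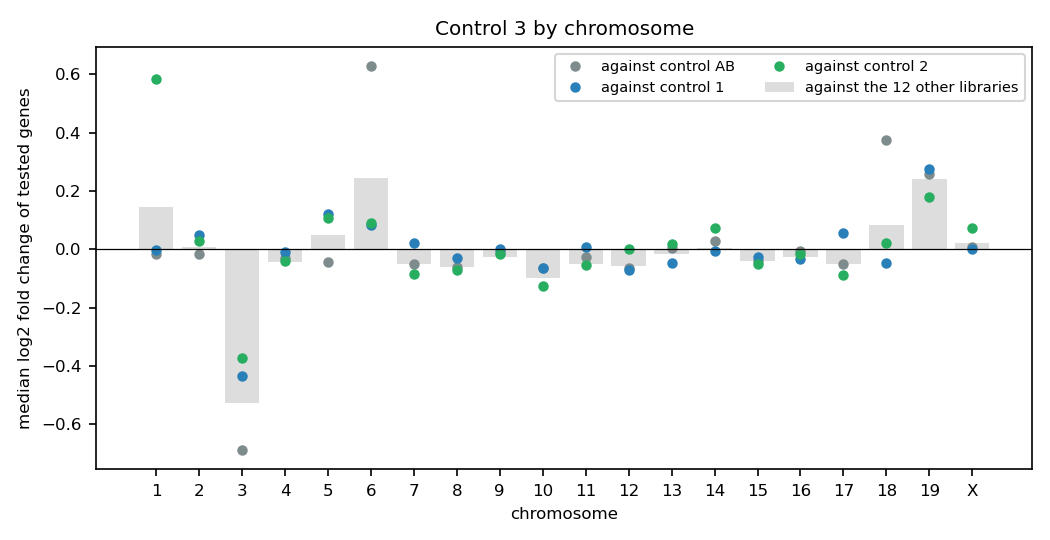
Median log2 fold change of the tested genes of each chromosome in control 3, as bars against the 12 other control libraries together and as points against each clone. Chromosome 3 is at -0.53 with all 3 points below 0, and chromosome 19 at 0.24 with all 3 points above 0.

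Called genes also lay side by side in the genome. Of the genes called higher, 20 of 145 (13.8%) had another gene called higher as the next tested gene on either side, against 2.31% of all 12291 placed genes. Of those called lower, 25 of 175 (14.3%) had such a neighbour called lower, against 2.82%. Chromosome 3, lower along its whole length, held 34 of these 175 genes, and no share without it was computed. On chromosome 12, Stxbp6 lies beside Nrcam, a neuronal adhesion molecule at 3.27 to 4.03 CPM in control 3, at 0.352 to 0.748 CPM in control AB and at 0 in controls 1 and 2 (log2 fold change 4.26). On chromosome 11, Nipal4 lies beside Adam19, a membrane metalloprotease (log2 fold change 4.53, 1.65 to 2.53 CPM against at most 0.496 CPM). Adam19 had 17 counts in the other 12 libraries together and Nrcam had 42. Both passed the filter on low counts only through control 3, so their values are descriptions without a test. The shares of neighbours above include them. Among the lower genes, Gas1 lies beside Dapk1 on chromosome 13. Serpinb9b lies beside Gm6093, which was called higher (log2 fold change 2.13), and beside Serpinb9, which was not (1.14).

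The ciliated groups of the series gave libraries that the comparison above did not use, and 1 of the 4 ciliated control clones, D8, shared part of the calls of control 3. The labels do not tie clones of the 2 states to each other, and the study's methods describe a single set of control clones for the series. D8 may therefore be control 3 in the other state, and its calls are not counted as those of a second clone. All 4 ciliated controls were compared in the same way before D8 was singled out by its values. Of the 145 genes called higher in control 3, 121 were tested there and 58 were called higher in D8 against the other ciliated controls, which is 40.0% of the 145, 17.1% of the 339 that D8 had, and to be read against 2.75% of all genes tested. Of the 175 called lower, 95 were called lower in D8 (54.3%, and 33.9% of its 280, against 2.27% of all genes). The sign matched in 120 of 121 and 166 of 172 tested genes. Each of the other ciliated controls was compared with a set that includes D8, so genes that are high in D8 tend to the opposite sign there. They shared 0 of the higher genes each, where H12, A4 and G7 had called 2.29%, 0.527% and 5.27% of all genes higher. Of the lower genes, H12 shared 16, A4 shared 4 and G7 shared 9, where 1.79%, 1.72% and 12.9% of all genes were lower. Opposite calls were made for 6 higher and 16 lower genes in H12, 6 and 8 in A4, and 85 and 69 in G7, against 0 and 1 in D8. In D8 the log2 fold change was 3.21 for Elmod1, 4.82 for Prune2, 2.99 for Cntfr, -7.83 for Serpinh1 and -6.84 for Usp13, all called by edgeR. Crmp1 (2.79, adjusted p 0.0528) and Stxbp6 (2.96, adjusted p 0.0930) did not pass there. Elmod1 was at 4.09 ± 0.417 CPM in D8 and at most 0.606 CPM on average in any other ciliated group. Low Serpinh1 was not limited to these 2 groups. Its mean was 1.17 ± 0.0803 CPM in the non-ciliated Wdr34 mutant and 1.79 ± 0.726 CPM in 1 ciliated Wdr34 clone. Usp13 was at 0.0405 ± 0.0496 and 0.163 ± 0.168 CPM in the non-ciliated Wdr34 and Wdr60 mutants. In the same 2 mutants, Galnt18 was at 0.0152 and 0.0763 CPM, Chst15 at 0.102 and 0 CPM and Tmem178 at 1.14 and 0.548 CPM. Lifr was at 1.18 and 0.419 CPM and Adh7 at 3.16 and 5.74 CPM there. Other leading lower genes were clearly higher in both mutants than in control 3, such as Ugt8a (16.4 and 9.63 CPM), Dapk1 (14.0 and 7.76 CPM) and Gspt2 (11.3 and 10.9 CPM).

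**Figure D4:**
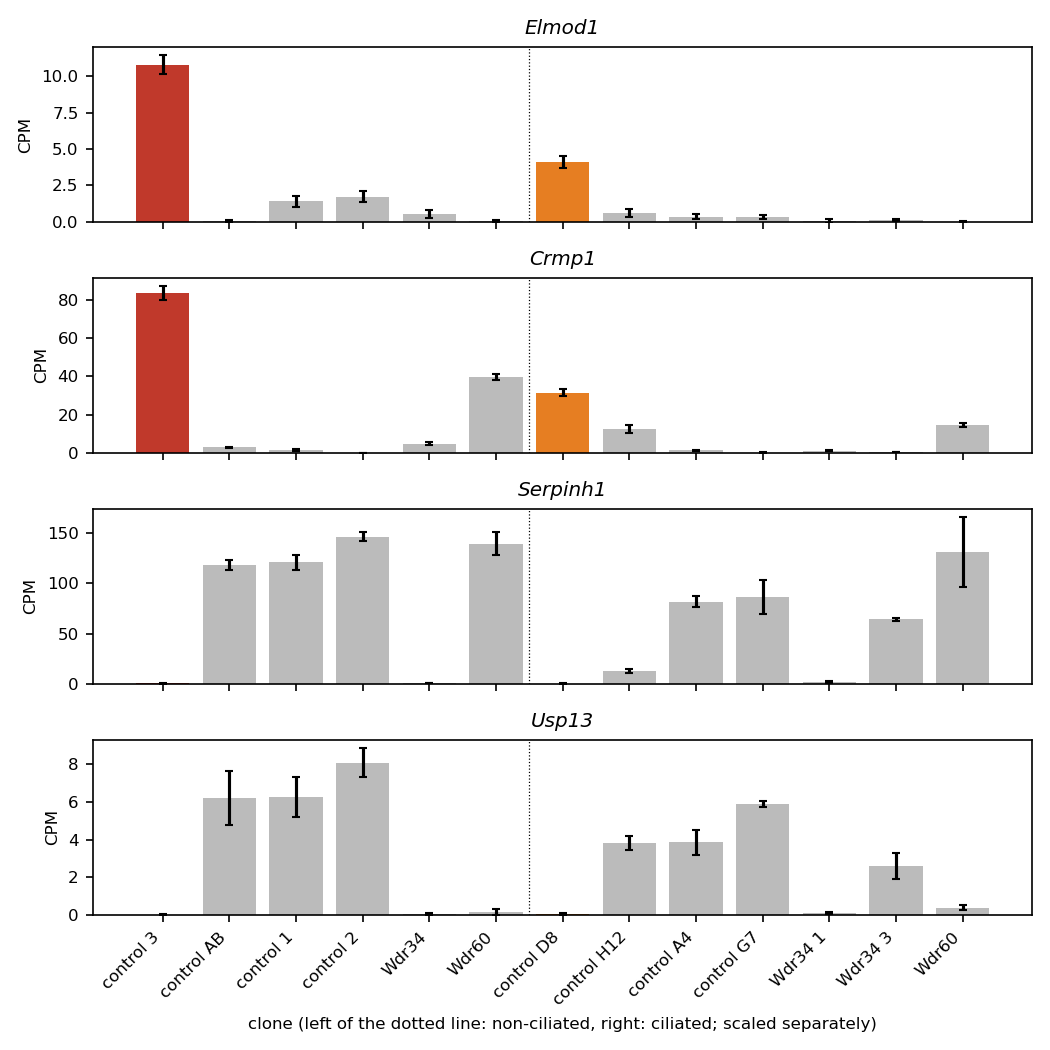
Mean CPM ± SD over 4 libraries of Elmod1, Crmp1, Serpinh1 and Usp13 in all 13 clone and state groups, with control 3 in red and ciliated control D8 in orange (the 2 states were scaled separately). Elmod1 is at 10.8 CPM in control 3 and 4.09 CPM in D8, and Serpinh1 is below 2 CPM in control 3, D8 and 2 Wdr34 groups.

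Control 3 and D8 were also nearest to each other on chromosomes 3 and 19, which were picked for the shifts of control 3. Each library's log2 levels were set against the mean of the libraries of its state, and the median over the genes of a chromosome was taken. On chromosome 3 the 4 libraries of control 3 were at -0.38 to -0.34 and those of D8 at -0.32 to -0.26. The lowest mean of any other group was -0.04, while control AB (0.28), the non-ciliated Wdr34 mutant (0.35), ciliated control H12 (0.28) and 1 ciliated Wdr34 clone (0.29) were above 0. On chromosome 19 control 3 was at 0.17 to 0.21 and D8 at 0.14 to 0.19, and the means of all other groups lay between -0.12 and -0.01. Other chromosomes had shifts of like size in other groups: chromosome 1 was low in control 2 (-0.43) and ciliated G7 (-0.35), and chromosome 6 in control AB (-0.41), ciliated H12 (-0.30) and the Wdr60 mutants of the non-ciliated and ciliated states (-0.37 and -0.35). On these, control 3 was at 0.14 and 0.20.

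**Figure D5:**
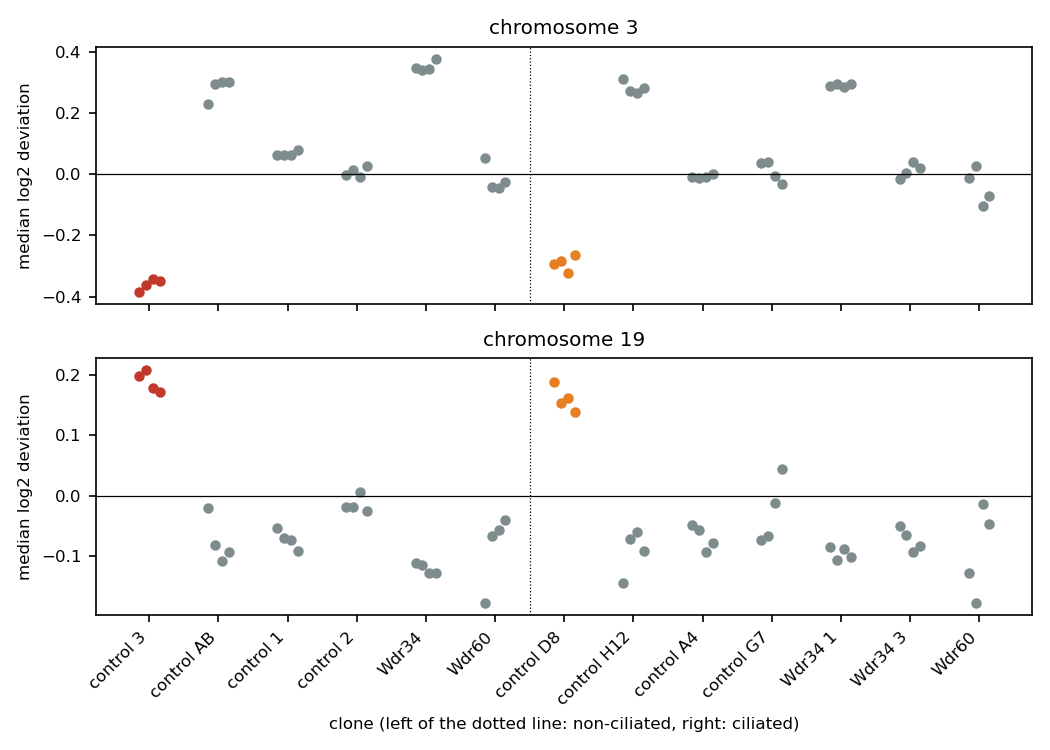
Median log2 deviation of the genes of chromosomes 3 and 19 in each of the 52 libraries from the mean of its state (1 point per library, by clone). Control 3 and ciliated control D8 are the lowest on chromosome 3 and the highest on chromosome 19.

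Control 3 is one of the 4 controls against which the non-ciliated mutants are set, so the values of those comparisons share libraries with the ones above. With all 16 control libraries, 59 genes were called higher in the 8 mutant libraries (0.491% of 12012) and 309 lower (2.57%). Library 1 of the Wdr60 mutant, kept among these 8, stood apart from its mates. Its median absolute log2 deviation from them was 0.270, against at most 0.122 for the other libraries of that clone. Without control 3, 62 were called higher (0.522% of 11875) and 287 lower (2.42%). Of the calls made with control 3, 39 of the higher and 241 of the lower genes were kept without it, and 23 and 46 others were gained. The largest moves in log2 fold change named here were those of Stxbp6, from 0.97 to 4.87, and Crmp1, from 0.02 to 3.86. Both genes were named for high levels in control 3, so leaving that clone out had to raise these values. They are given as descriptions without a test. Among the mutants, Crmp1 was at 4.89 CPM in the Wdr34 clone and 39.8 CPM in the Wdr60 clone. Elmod1, by which this clone was chosen, had a log2 fold change of -3.45 in the mutants with control 3 and -1.74 without it, given as a description without a test. Dll4, also called higher in control 3, went from -1.93 to -1.30, likewise given without a test. For Rgs2, a regulator of G protein signalling, the mutant value grew without control 3, from 1.74 to 2.37, and stayed called. In control 3 itself, Rgs2 was at 0.846 to 1.21 CPM against at most 0.755 CPM (log2 fold change 1.68). A list of 18 of the genes that the study names for mutants of both states, which is not its complete set and was chosen on these samples, held 4 that were higher in control 3. Dll4, Rgs2 and Elmod1, by which the clone was chosen, were among them, so nothing is read from that count. In the same list 1 gene was lower, Arxes2 (log2 fold change -3.45, adjusted p 0.0497 in edgeR). It overlapped with other controls, and its call was lost when any 1 library of control 3 or all of control AB or control 2 was left out.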

How the data were processed

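RNA of growing IMCD3 clones was sequenced from 16 control libraries of 4 clones. Per the labels, R 3.4.4, featureCounts and DESeq2 1.18.1 were used with GRCm38/mm10, and the deposited values are raw counts per gene symbol, which the authors made by alignment with Rsubread. Strand and multi-mapping settings are not given in the sources used here, so overlapping genes and near-identical copies are uncertain. Counts were filtered with filterByExpr, scaled by TMM and tested with edgeR 4.0.16 (quasi-likelihood, 2-sided, 4 control 3 libraries against 12) in R 4.3.3. The code was first run on simulated counts, with limits on recovery and false calls set only where clones did not differ. That run therefore does not show how the test performs for 1 clone against 3. DESeq2 1.42.0, limma 3.58.1 (voom with clones as blocks), other filters and left-out libraries were alternatives. Symbols were matched to RefSeq for 24300 of 24421 genes. Genes were named by rank of fold change (15 per direction, at least 5 CPM in the higher group, libraries not overlapping), up to 3 called genes per list, ends of chromosome runs and the study's list. Members and lists were chosen with earlier results of these data known. Library totals bound the precision of low genes, and intervals cover counting error only. Some genes that met the naming rule are not reported here.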

Additional observations from a re-analysis of the deposited data

Results flagged for a closer look

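Among 228 groups of 4 libraries (57 genes in the 4 control clones), 12 had 1 library far from its mates, by Dixon's test of the gap against the range, where chance gives about 1 in 20. In control 3 these were library 4 for Tmem252, at 12.6 CPM against 10.4 to 10.7, and library 3 for Bdkrb2, at 19.1 CPM against 16.2 to 16.5. In control 1, library 4 was apart for Crmp1 (0.899 CPM against 1.67 to 1.83) and Elmod1 (1.95 CPM against 1.22 to 1.24), and library 3 for Nipal4 (6.58 CPM against 8.27 to 8.44). Library 2 of that clone was apart for Acsbg1 (1.17 CPM against 1.75 to 1.80) and Ephb2 (23.8 CPM against 24.7 to 24.8), and library 1 for Tmem178 (42.3 CPM against 38.0 to 38.4). In control 2, library 1 was apart for Ugt8a (64.5 CPM against 68.3 to 68.9) and library 4 for Lifr (87.1 CPM against 78.8 to 79.3). In control AB, library 2 was apart for Flrt3 (1.21 CPM against 0.336 to 0.466) and library 1 for Dlk2 (10.2 CPM against 6.28 to 6.83).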

How the results depend on the processing

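The counts of 145 genes higher and 175 lower were close with RLE size factors (145 and 176), while DESeq2 called 206 and 294. Requiring at least 10 counts in every library left 62 and 113, adjusted p under 0.05 without a fold limit gave 484 and 631, and adjusted p under 0.01 gave 91 and 106. Fitting 1 mean per clone, which leaves only the spread between libraries of a clone, gave 609 and 275. Requiring a call against each of the 3 clones in that fit gave 110 and 90. Voom with the clone as a block gave 26 and 6, and summing the libraries of a clone gave 0 and 0. Without control AB the counts were 415 and 355, without control 1 they were 189 and 298, and without control 2 they were 194 and 195. Without library 1 of control AB, an alternative chosen after seeing the data, they were 159 and 201. Leaving out the libraries of 1 replicate number gave 80 to 107 higher and 89 to 116 lower, and leaving out 1 library of control 3 gave 106 to 115 and 111 to 113. The cause was not tested. Elmod1 had a log2 fold change of 4.30 with voom against 3.34, and no value where 10 counts in every library were required.

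With the replicate number as a block, 112 and 125 genes were called. Same-numbered libraries of different clones had correlations of -0.250 to 0.322 (median 0.0630), 10 of 24 pairs were over 0.1, and 7 of 16 libraries were closest to their own number. All 6 pairs of number 4 lay at 0.157 to 0.322, but numbers 2 and 3 held pairs under 0, and the labels do not say what a number marks, so the pairing was not used for the main values. Of 56 named genes called, none changed sign under the alternatives that gave it a value (25 had one where 10 counts in every library were required), 12 lost their call under the block and 40 with voom. These 56 include Twist2, Plagl1, Psrc1, Gstm1 and Flt1, which are not described above. They do not include Foxd1, Sim1, Efna2, Sema5a, Nog and Gm6093, so nothing is said of those under the alternatives.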
